A study of Homo sapiens with 26 samples.

Results

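Ribosome footprint libraries of K562 cells cut at 20-60 nt were compared with libraries cut at 20-34 nt, to ask whether classes of genes change their share of footprints when longer fragments are kept. K562 is a human erythroleukaemia line. The comparison took 4 of the 26 libraries of the series, chosen by their titles: 20-60 nt and 20-34 nt, each with NEBNext depletion of ribosomal RNA and each undepleted, so that every combination held 1 library and none had a replicate. The cells were grown in RPMI medium with serum, lysed with cycloheximide and digested with RNase I, per the labels' protocols, and no other treatment was labelled. The libraries titled undepleted also carry a depletion label naming NEBNext, and the titles were followed here. The protocol and the molecule label state upper sizes below 60 nt for every library, and the size labels were followed.

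In ribosome profiling, RNase I removes mRNA that no ribosome covers, and the fragments left inside ribosomes are sequenced. A single ribosome is known to protect a short stretch of mRNA. Longer fragments can come from incomplete trimming, from ribosomes that stand close together, or from RNA protected by other proteins, so the upper cut of a gel decides which of these enter the library. NEBNext depletion hybridises DNA probes to ribosomal RNA and digests the hybrids with RNase H, whereas an undepleted library skips this step.

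The coding-sequence counts totalled 441249 for NEBNext at 20-34 nt, 199707 for NEBNext at 20-60 nt, 190243 for undepleted at 20-34 nt and 46858 for undepleted at 20-60 nt. The floor of 3 counts was 6.80, 15.0, 15.8 and 64.0 counts scaled to a common library total (CPM) in that order, so the undepleted 20-60 nt library limits every undepleted comparison. Of the 14 erythroid marker genes of K562, 0 to 1 were at 0 in any of these libraries, and their summed level was 13188 to 14484 CPM. Of the 8 markers of the HEK293 line, 6 were at 0 in each library, with a sum of 448 to 520.4 CPM. That sum rests on DLK1 (341 to 452 CPM) and TUBB2B (68.3 to 115 CPM). The 8 markers of other blood lineages summed to 31.5 to 85.4 CPM, with 5 to 7 of them at 0. The erythroid markers made up 1.45% of counts at 20-34 nt and 1.32% at 20-60 nt with NEBNext, and 1.32% and 1.39% without depletion. Most of this is globin: globins held 1.37% and 1.26% of counts with NEBNext, and 1.24% and 1.33% without depletion.

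Few single genes differed by fragment range in both kinds of library together. In a fit with depletion and size as terms (edgeR's quasi-likelihood test, 1 residual degree of freedom), 6 of 3715 genes passed an adjusted p under 0.05, which is 0.162% of the genes tested, with 3 higher and 3 lower (0.0808% each). KCNH8, SRSF2 and AKAP8L were higher at 20-60 nt, and RPS29, HIST2H2AB and MORF4L1 were lower. A count of 227 genes had an unadjusted p under 0.05. Under total-count scaling KCNH8 alone passed. DESeq2 called 0 genes, with 2 at an unadjusted p under 0.05, and edgeR with size alone in the fit called 0, with 76.

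KCNH8 encodes a voltage-gated potassium channel of the ELK family. It had 713 counts (1616 CPM) at 20-34 nt and 740 counts (3705 CPM) at 20-60 nt with NEBNext. The undepleted libraries held 0 and 2 counts, which is at or under the floor. Its call therefore rests on the NEBNext libraries, in which it was 2.29-fold higher at 20-60 nt (edgeR quasi-likelihood log2 fold change within NEBNext 1.17, SE 0.09, adjusted p 1.68e-20). No fold is given for the undepleted pair. The undepleted libraries of another K562 table held 35.9 ± 10.9 CPM (SD, n = 2). CCNC, the cyclin of the Mediator kinase module, had 1446 and 1502 CPM at 20-34 and 20-60 nt with NEBNext against 10 and 1 counts undepleted, and so was high with NEBNext at both ranges without a size change past the threshold (additive log2 fold change 0.01, SE 0.19, edgeR quasi-likelihood adjusted p 0.996).

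SRSF2, a serine/arginine-rich splicing factor, had 304 and 596 CPM at 20-34 and 20-60 nt with NEBNext, and 310 and 448 CPM undepleted. The undepleted levels rest on 59 and 21 counts, and the 95% counting interval of their log2 ratio, -0.26 to 1.27, includes no change (additive log2 fold change 0.84, SE 0.21, edgeR quasi-likelihood adjusted p 0.0408). AKAP8L, a nuclear protein related to the kinase anchor AKAP8, rested on 19, 37, 19 and 8 counts in the order NEBNext 20-34, NEBNext 20-60, undepleted 20-34 and undepleted 20-60 nt (log2 fold change 1.62, SE 0.37, edgeR quasi-likelihood adjusted p 0.0183). Counting error is wide for so few reads: the 95% interval of its undepleted log2 ratio ran from -0.63 to 2.03.

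Among the genes that fell, HIST2H2AB, a replication-dependent histone H2A gene, had 863 and 466 CPM at 20-34 and 20-60 nt with NEBNext, and 368 and 192 CPM undepleted. The log2 ratio was -0.89 in the NEBNext pair and -0.94 in the undepleted pair, the closest match between pairs among these 6 genes (additive log2 fold change -0.91, SE 0.21, edgeR quasi-likelihood adjusted p 0.0183). RPS29, a protein of the small ribosomal subunit, had 2099 and 1197 CPM with NEBNext and 594 and 512 CPM undepleted. The NEBNext levels did not reach down to the undepleted ones at either range (additive log2 fold change -0.70, SE 0.17, edgeR quasi-likelihood adjusted p 0.0376). MORF4L1, a chromodomain protein of histone acetyltransferase complexes, had 501 and 210 CPM with NEBNext and 347 and 320 CPM undepleted (additive log2 fold change -0.97, SE 0.24, edgeR quasi-likelihood adjusted p 0.0408). The undepleted intervals of all 3 genes that fell include no change.

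The coding sequences behind the falls of RPS29 and HIST2H2AB and the rise of SRSF2 are shown because these genes carry called changes and differ in length and base composition. Each line gives the first 120 bases of the coding sequence, 5′ to 3′, from the GENCODE 29 transcript on GRCh38. The first 34 bases are in capitals and mark the longest fragment that the narrow range admits.
RPS29: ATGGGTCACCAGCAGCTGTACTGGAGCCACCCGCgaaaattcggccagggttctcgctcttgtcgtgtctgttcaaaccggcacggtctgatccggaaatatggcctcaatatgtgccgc
HIST2H2AB: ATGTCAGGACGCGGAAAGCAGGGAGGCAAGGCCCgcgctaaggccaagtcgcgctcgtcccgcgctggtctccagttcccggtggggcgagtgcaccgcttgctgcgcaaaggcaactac
SRSF2: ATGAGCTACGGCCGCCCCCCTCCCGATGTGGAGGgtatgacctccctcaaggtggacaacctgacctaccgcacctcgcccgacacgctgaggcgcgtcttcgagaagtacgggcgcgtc
RPS29 lies on the minus strand of chromosome 14 (49583572 to 49586376), HIST2H2AB on the minus strand of chromosome 1 (149887524 to 149887916) and SRSF2 on the minus strand of chromosome 17 (76734115 to 76737333). Their coding sequences are 171, 393 and 666 nt long, and the printed stretches have a GC content of 56.7%, 66.7% and 65.8%. HIST2H2AB belongs to a multigene family with near-identical copies, and RPS29 has processed copies, so their counts are uncertain where shared reads could be split.

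**Figure D1:**
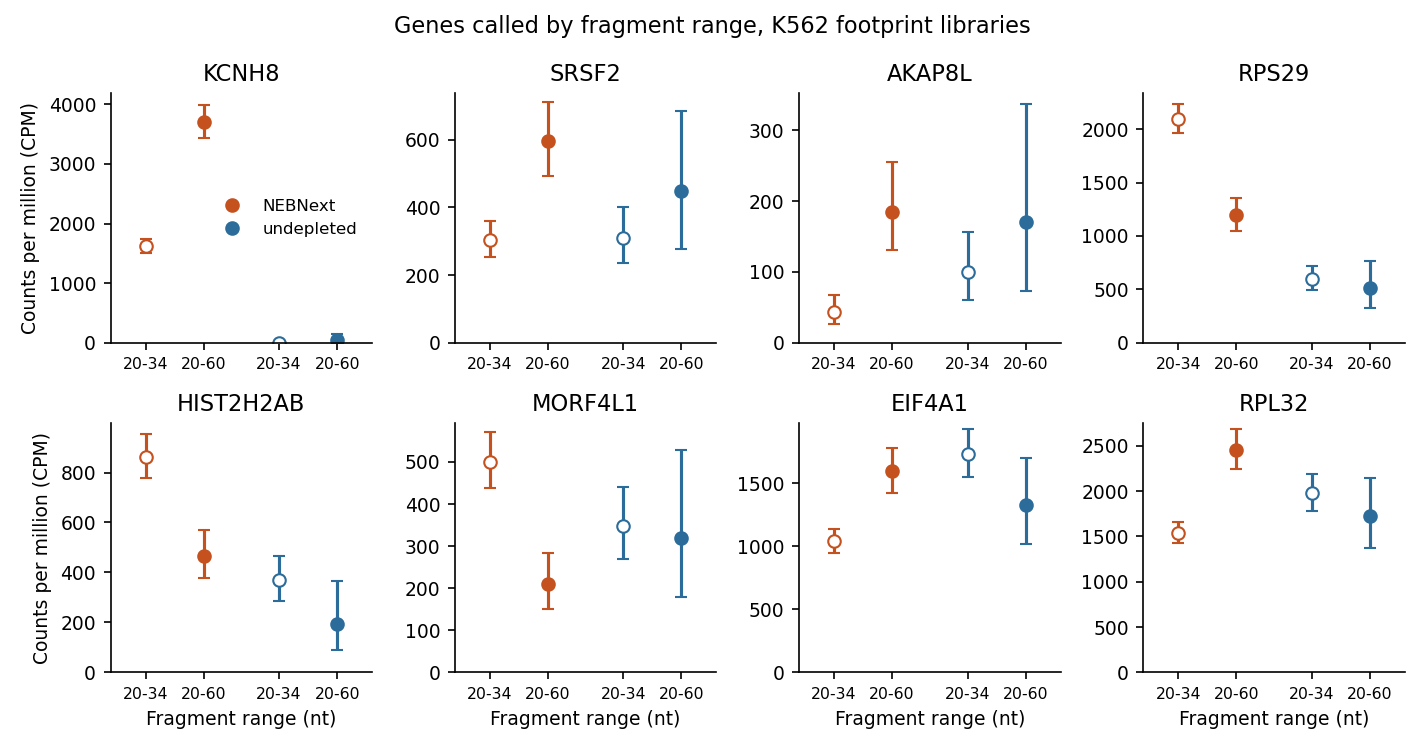
Level in CPM (vertical axis) of 8 genes in the 4 K562 libraries by fragment range (horizontal axis, nt). Open points are 20-34 nt, filled points 20-60 nt, and bars are 95% Poisson intervals, which cover counting error only. RPS29 falls from 2099 to 1197 CPM with NEBNext and lies at 594 and 512 CPM undepleted.

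With the spread lent by 4 replicate pairs of another K562 table (1 pair without depletion and pairs made with FastSelect, with riboPools and with cold-eluted riboPools, all at 20-34 nt), size could be tested within each depletion. This assumes that the lone libraries vary like those pairs. Within NEBNext, 79 of 3715 genes differed (edgeR's quasi-likelihood test, adjusted p under 0.05), or 2.13%, with 29 higher (0.781%) and 50 lower (1.35%) at 20-60 nt. With total-count scaling the split was 42 higher and 43 lower. Within undepleted, edgeR called 0 genes, with 242 at an unadjusted p under 0.05. The difference between the pairs passed the threshold for 2 genes, or 0.0538%. The 6 genes of the additive fit were among the 79.

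Both genes whose size change differed between depletions rose with NEBNext, and had lower levels at 20-60 nt undepleted. EIF4A1, the helicase that unwinds mRNA 5′ ends during initiation, had 1038 and 1592 CPM at 20-34 and 20-60 nt with NEBNext, and 1729 and 1323 CPM undepleted. RPL32, a protein of the large ribosomal subunit, had 1539 and 2459 CPM with NEBNext, and 1976 and 1729 CPM undepleted. In each gene NEBNext at 20-34 nt gave the lowest of the 4 levels. The difference between the log2 changes was 0.99 for EIF4A1 and 0.85 for RPL32 (edgeR's quasi-likelihood test, adjusted p 0.0131 for each). Their first 120 coding bases are printed as above because these genes carry the only called difference between the depletions.
RPL32: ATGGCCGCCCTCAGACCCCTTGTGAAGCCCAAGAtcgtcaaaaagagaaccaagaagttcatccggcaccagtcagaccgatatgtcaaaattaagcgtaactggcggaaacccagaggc
EIF4A1: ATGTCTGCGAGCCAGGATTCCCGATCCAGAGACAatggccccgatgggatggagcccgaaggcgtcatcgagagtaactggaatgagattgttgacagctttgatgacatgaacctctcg
RPL32 lies on the minus strand of chromosome 3 (12834485 to 12841588) and EIF4A1 on the plus strand of chromosome 17 (7572826 to 7579005), with coding sequences of 408 and 1221 nt. RPL32 has processed copies too, so its count is uncertain in the same way.

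Most genes called within NEBNext had high counts. Among the 394 genes averaging 100 counts or more, 49 were called, or 12.4%, against 2.13% of all genes tested. Of the 79, 45 belonged to at least 1 of the 29 gene lists used here, which hold 17.4% of the genes tested. Several lists are rich in genes of high counts. Of their tested members, 46 of 49 large-subunit and 32 of 34 small-subunit ribosomal protein genes averaged 100 counts or more. So did 40 of 59 histone genes. The 17.4% is therefore not a matched share, and the 45 are not read as a concentration of calls in the lists. NEBNext at 20-34 nt was the highest or the lowest of the 4 libraries in 72 of the 79 genes, or 91.1%, against 58.9% of the 394 genes of high counts. Since the calls compare that library with NEBNext at 20-60 nt, this share describes the genes and tests nothing.

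Small-subunit ribosomal protein genes made up 5.78% of counts at 20-34 nt and 5.47% at 20-60 nt with NEBNext. Undepleted, their share was 5.35% and 5.25%. The log2 ratio was -0.08 in the NEBNext pair (95% interval from counting -0.11 to -0.05) and -0.03 in the undepleted pair (-0.09 to 0.04). Of 34 genes tested, 2 rose and 8 fell within NEBNext by edgeR's quasi-likelihood test (10 of the 32 that averaged 100 counts or more, against 12.4% of all such genes). RPS24 rose, from 1224 to 2068 CPM with NEBNext, while the undepleted libraries had 2213 and 2283 CPM. RACK1, the ribosomal scaffold that binds signalling kinases, fell from 3574 to 2649 CPM with NEBNext (log2 fold change -0.46, SE 0.07, edgeR quasi-likelihood adjusted p 9.68e-07). Its undepleted levels were 2786 and 2604 CPM. The median log2 fold change of the list within NEBNext was -0.13, against -0.01 over all genes tested. RPS7 rose, and RPS3A, RPS18, RPS21, RPS27, RPS27A, RPS28 and RPS29 fell.

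Large-subunit ribosomal protein genes had a share ratio of the other sign. Their share was 7.34% and 7.55% with NEBNext (log2 ratio 0.04, 95% interval 0.01 to 0.07), and 7.63% and 7.71% undepleted (0.01, -0.04 to 0.07). Within NEBNext 4 genes rose (RPL30, RPL32, RPL35A and RPL38) and 5 fell (RPL4, RPL10, RPL11, RPL23 and RPLP0) of 49 tested, so single members went in both directions, with a median of 0.08. These were 9 of the 46 members that averaged 100 counts or more, against 12.4% of all such genes. RPL30 rose from 1120 to 1738 CPM with NEBNext, and its undepleted levels were 925 and 875 CPM. RPLP0, which anchors the ribosomal stalk, fell from 2280 to 1702 CPM, with 1325 and 1280 CPM undepleted.

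Replication-dependent histone genes, whose mRNAs lack poly(A) tails, went from 5.27% to 4.87% of counts with NEBNext (log2 ratio -0.11, 95% interval -0.15 to -0.08). Undepleted they were 4.66% and 4.67% (0.0033, -0.065 to 0.071). The difference between the pairs was -0.12 (-0.19 to -0.04). Within NEBNext 8 of 59 genes fell and 1, HIST1H2BG, rose, with a median of -0.08. Of the 40 members that averaged 100 counts or more 8 were called, against 12.4% of all such genes. HIST1H4C fell from 2674 to 1733 CPM and HIST1H2AG from 2908 to 1893 CPM. Their undepleted levels lay lower, at 1041 and 1003 CPM and at 1393 and 1302 CPM. HIST1H1C, the linker histone of most counts, had 4422 and 4251 CPM with NEBNext and 5525 and 6232 CPM undepleted. Reads of near-identical histone copies may be split between them.

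The 13 mitochondrially encoded mRNAs, which code for respiratory chain subunits and are translated by mitochondrial ribosomes, were 3.68% of counts at 20-34 nt and 3.49% at 20-60 nt with NEBNext (log2 ratio -0.08, 95% interval -0.12 to -0.04). Undepleted they went from 2.44% to 2.65% (log2 ratio 0.12, interval 0.03 to 0.21). The pairs differed by -0.19 (-0.29 to -0.10). The largest ratio between replicates of the other K562 table was 0.12, which is as large as either change. Within NEBNext the median of the 13 was 0.0013, while their share was lower.

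MT-CO2, subunit 2 of cytochrome c oxidase, had 5768 and 4712 CPM with NEBNext and 2318 and 2390 CPM undepleted. MT-ATP8, a small subunit of ATP synthase, had 4070 and 3064 CPM with NEBNext and 1241 and 1046 CPM undepleted. MT-CO3 had 6015 and 5243 CPM with NEBNext and 3753 and 4418 CPM undepleted. These 3 fell within NEBNext and none of the 13 rose past the threshold. All 13 averaged 100 counts or more, and 12.4% of all such genes were called within NEBNext. The NEBNext ratios of the list's members ran from -0.41 for MT-ATP8 to 0.56 for MT-ND3. MT-ND6, a complex I subunit and the one mRNA coded on the other mitochondrial strand, had 612 and 856 CPM with NEBNext and 378 and 640 CPM undepleted. Its additive log2 fold change of 0.54 (SE 0.19) missed the threshold (edgeR quasi-likelihood adjusted p 0.414), although both pairs lay on the same side. MT-ATP8 overlaps MT-ATP6, and MT-ND4L overlaps MT-ND4, so their reads are uncertain where the counting could split them. Whether strand was used in counting is not given in the sources used here, so reads of MT-ND6 and of the opposite strand cannot be told apart with certainty.

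**Figure D2:**
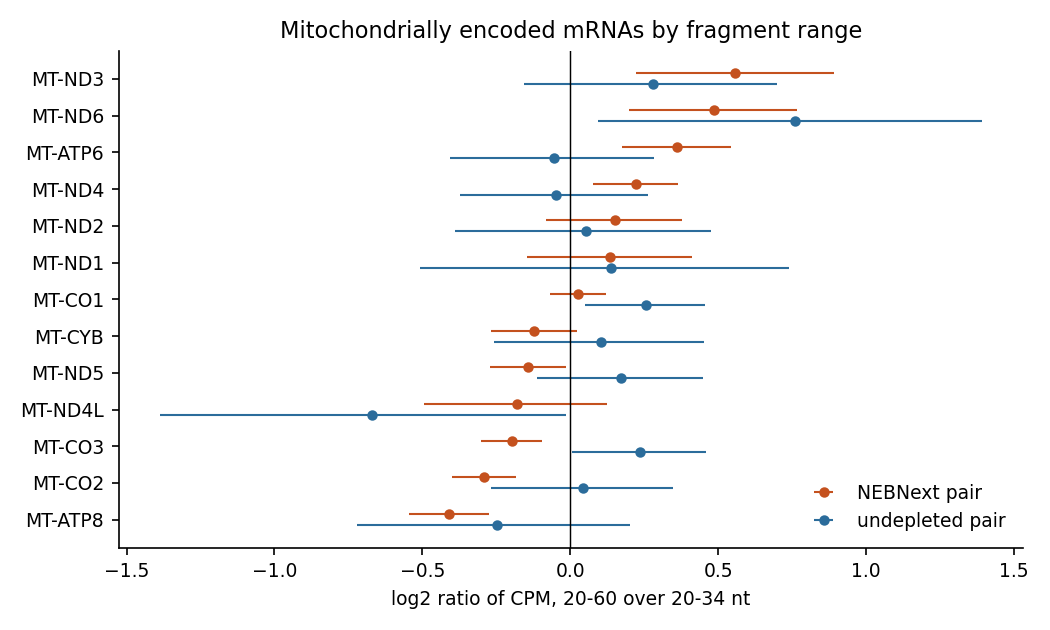
The log2 ratio of CPM, 20-60 over 20-34 nt (horizontal axis), for each of the 13 mitochondrially encoded mRNAs, in the NEBNext pair and the undepleted pair. Bars are 95% intervals from counting error. MT-ATP8 lies lowest with NEBNext at -0.41, and the undepleted intervals are wider throughout.

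The other lists whose NEBNext interval excluded no change held fewer counts. Acidic histone chaperones, which shield histones from DNA, held 0.704% and 0.809% with NEBNext (log2 ratio 0.20, 95% interval 0.11 to 0.29) and 0.938% and 0.982% undepleted (0.07, -0.08 to 0.22), and the median of their 13 members within NEBNext was 0.09. PTMA, prothymosin alpha, rose within that list from 467 to 721 CPM with NEBNext, with 1009 and 1088 CPM undepleted. One-carbon and nucleotide synthesis genes went from 0.647% to 0.560% with NEBNext (log2 ratio -0.21, -0.31 to -0.11) and from 0.561% to 0.551% undepleted, with a NEBNext median of -0.11 over 19 genes. IMPDH2, the enzyme that commits IMP to guanine nucleotides, and MTHFD1, a folate enzyme, fell within it.

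Glycolytic enzymes went from 2.06% to 1.89% with NEBNext (log2 ratio -0.13) and from 1.87% to 1.86% undepleted. ENO1, enolase, fell from 4857 to 3650 CPM, with 4189 and 4290 CPM undepleted. Globins went from 1.37% to 1.26% with NEBNext (log2 ratio -0.13) and from 1.24% to 1.33% undepleted. The NEBNext change rests on HBG1 and HBG2, near-identical fetal globins whose reads cannot be told apart with certainty, and HBE1, the embryonic globin, had 1782 and 2412 CPM undepleted. The CCT chaperonin, which folds actin and tubulin, went from 0.858% to 0.778% with NEBNext and from 0.788% to 0.828% undepleted. Its NEBNext median was -0.20, and 0 of 8 members were called in either pair. All 8 averaged 100 counts or more, and 12.4% of all such genes were called within NEBNext, so 0 calls say little. The hnRNP and SR splicing proteins went from 1.70% to 1.83% with NEBNext and from 1.86% to 1.83% undepleted, with a NEBNext median of 0.14. SRSF2 alone of 26 was called within NEBNext, against 2.13% of all genes tested. Of the 17 members that averaged 100 counts or more 0 were called, against 12.4% of all such genes. Elongation and termination factors went from 2.42% to 2.52% with NEBNext, and selenoproteins, the list with the widest error among these, from 0.0854% to 0.104%.

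In all, 12 of 29 lists had a NEBNext ratio whose counting interval excluded no change (5 higher, 7 lower), and 11 of these also exceeded the largest ratio between replicates of the other K562 table. The exception was the mitochondrially encoded mRNAs, which were also the 1 list whose undepleted interval excluded no change. Whatever their intervals, 22 of 29 lists exceeded the replicate ratio with NEBNext, and 18 of 29 did so undepleted. The replicate libraries held 1031889 to 5795774 counts each, so counting error in the shallower size libraries can by itself exceed their ratio. Without the 14 genes that were among the 10 of most counts in any library, in the lists and in the total, the NEBNext ratio was 0.01 for globins, -0.02 for mitochondrially encoded mRNAs, -0.02 for glycolytic enzymes and 0.04 for elongation and termination factors, with intervals that included no change. Tubulins and actins then had a ratio of -0.10 whose interval excluded it. The ratio had the same sign in both pairs in 17 of 29 lists. The pairs differed beyond counting error in 5 lists: mitochondrially encoded mRNAs, globins, histones, CCT chaperonin, and hnRNP and SR proteins. The ratios were small, with a median size of the log2 ratio of 0.04 with NEBNext and 0.06 undepleted.

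**Figure D3:**
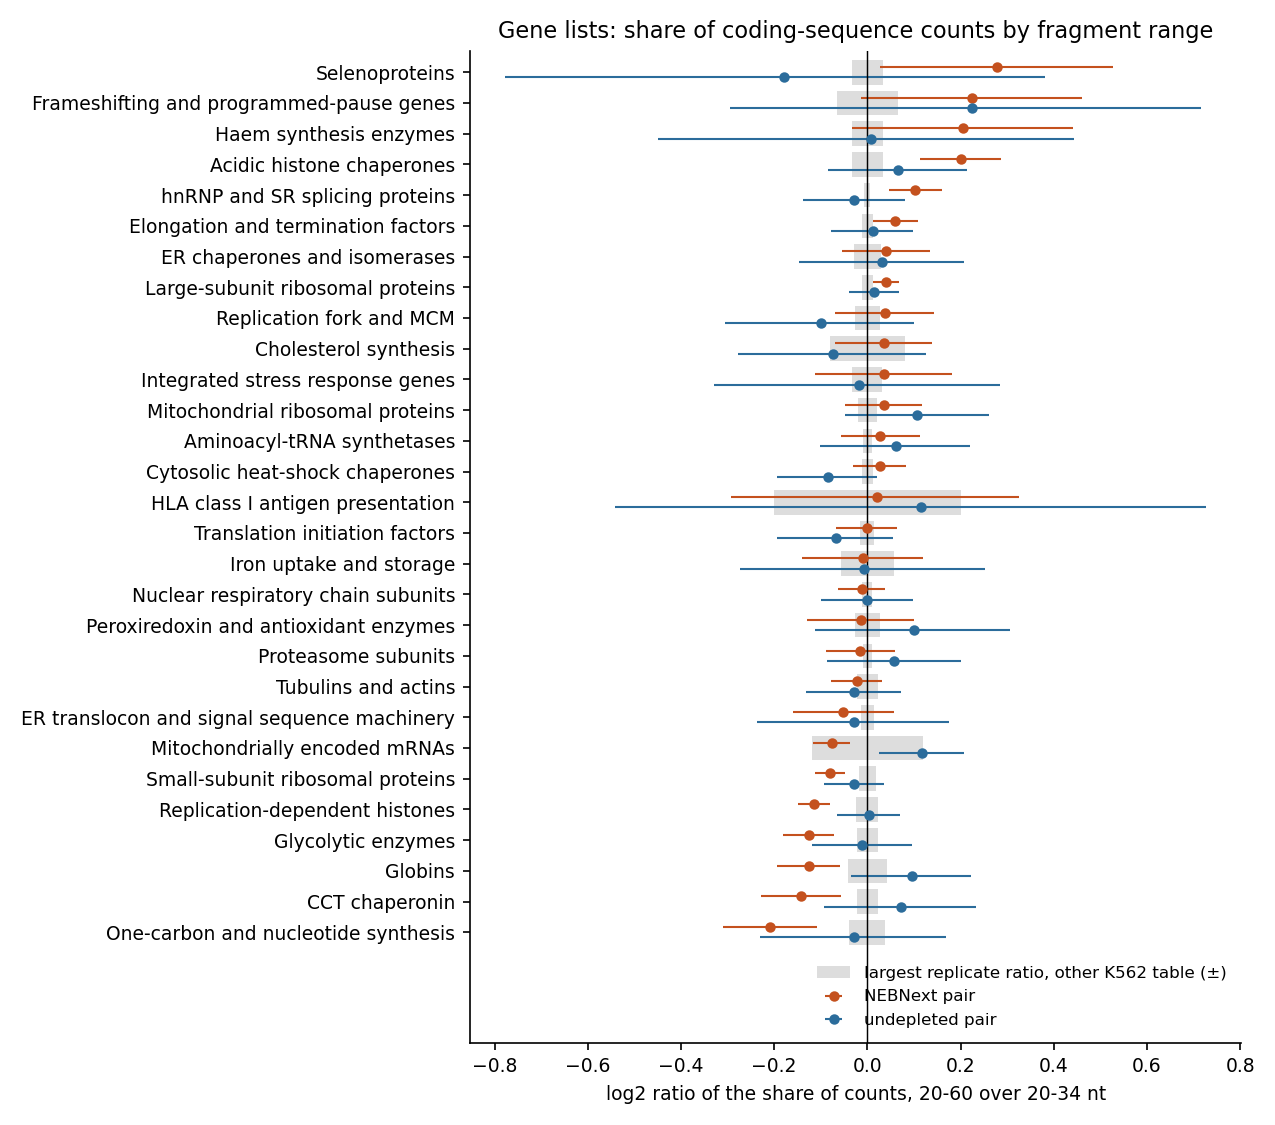
The log2 ratio of each list's share of coding-sequence counts, 20-60 over 20-34 nt (horizontal axis), for the NEBNext and undepleted pairs, with 95% intervals from counting error. Grey bars span plus and minus the largest ratio between replicates of another K562 table, whose libraries are deeper. Small-subunit ribosomal proteins lie at -0.08 with NEBNext and -0.03 undepleted.

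The remaining lists had intervals that included no change in both pairs. The nuclear respiratory chain subunits had a NEBNext log2 ratio of -0.01 (95% interval -0.06 to 0.04) and an undepleted ratio of -0.001 (-0.101 to 0.098). Proteasome subunits had a NEBNext ratio of -0.02 (-0.09 to 0.06) and 0 of 32 members called, against 2.13% of all genes tested within NEBNext. For frameshifting and programmed-pause genes, such as OAZ1 and AMD1, the NEBNext ratio was 0.22 (-0.01 to 0.46) and the undepleted one 0.22 (-0.30 to 0.72). Of their 4 tested members 0 were called, which at the same 2.13% says little about them. Integrated stress response genes had a NEBNext ratio of 0.04 (-0.11 to 0.18). These intervals bound the changes that the depth allows, and do not show that there was none.

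Over single genes, the pairs agreed little at this depth. Of the 394 genes averaging 100 counts or more, 209 moved the same way in both. Across these genes, which are not independent replicates, Pearson's r was 0.20 and Spearman's rho 0.06, and without KCNH8 and CCNC r was 0.09. The undepleted 20-60 nt library held 46858 counts, and its counting error lowers such agreement. Low agreement therefore does not show that the size changes differ between depletions. Besides the genes above, the largest rises shared in sign by both pairs were OAZ1, RPS24, MT-ND3, HIST1H2BO, PTMA and TOP2A, with additive log2 fold changes of 0.41 to 0.50. The largest shared falls were YWHAE, HIST2H3D, HAT1, TIMP1, EIF3L and ATP5C1, at -0.64 to -0.53. Sharing a sign does not mean a like size. The undepleted log2 ratio ran from 0.05 for RPS24 to 0.72 for OAZ1 among these rises. Among these falls it ran from -0.10 for TIMP1 to -0.82 for HAT1. None of these 12 passed the additive test.

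The size change with NEBNext was set beside the NEBNext change in HEK293T, a human embryonic kidney line whose NEBNext and undepleted libraries (2 each, 15-35 nt) share none of the K562 libraries. This comparison was added after the K562 data were seen. Over 212 genes that averaged 100 counts or more in each table, genes that were lower with NEBNext in HEK293T tended to be higher at 20-60 nt in the K562 NEBNext pair (Pearson's r -0.44, Spearman's rho -0.42, across genes). For the undepleted pair, whose counting error is larger, r was 0.11. Against the changes made by Ribo-Zero Gold and RiboCop in HEK293T, which share the HEK293T undepleted libraries, the NEBNext pair gave r of -0.11 and -0.03. With a minimum of 50 counts, r was -0.39 over 461 genes, and with a minimum of 200 counts it was -0.38 over 83 genes.

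**Figure D4:**
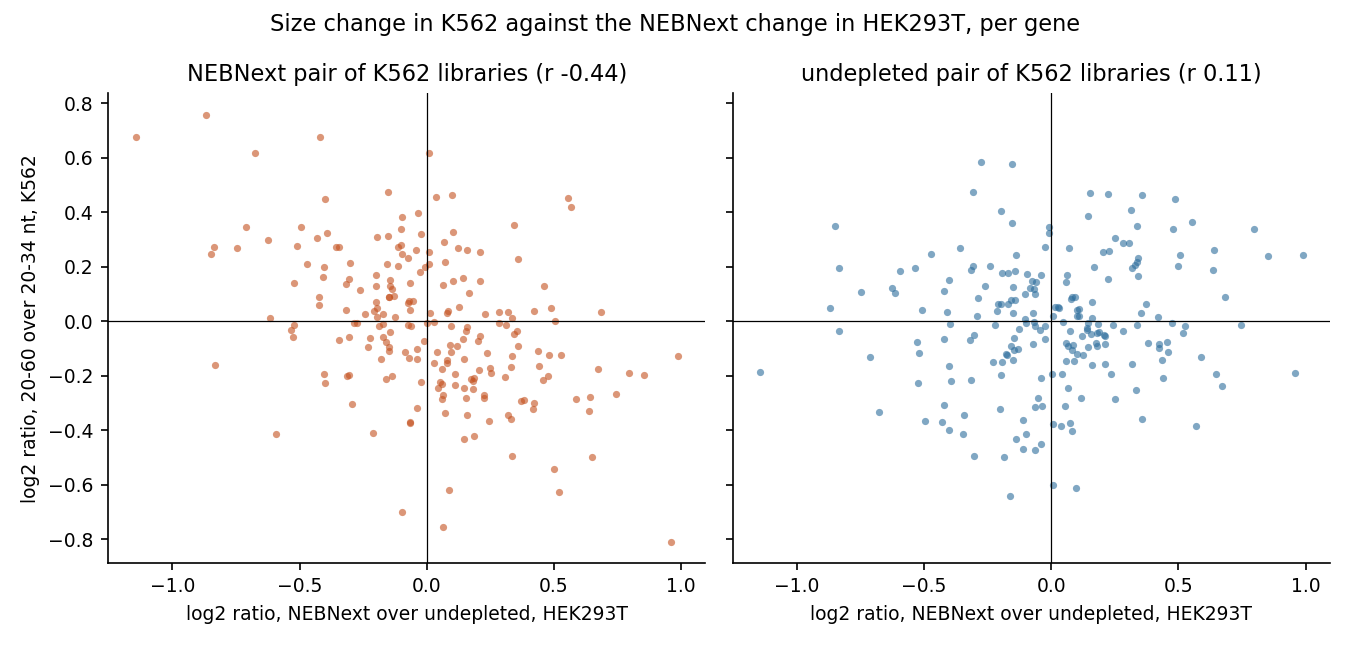
Each point is 1 of 212 genes. The horizontal axis is the log2 ratio of NEBNext over undepleted in HEK293T, and the vertical axis the log2 ratio of 20-60 over 20-34 nt in K562, for the NEBNext pair (left) and the undepleted pair (right). The cloud slopes down on the left (r -0.44) and has little slope on the right (r 0.11).

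Sorted by the HEK293T change, from the lowest to the highest, into 4 groups of 53 genes, the median size change of the NEBNext pair was 0.12, 0.07, -0.11 and -0.17. In the undepleted pair it was 0.02, -0.02, -0.04 and 0.03. Of the 53 genes lowest with NEBNext in HEK293T, 36 were higher at 20-60 nt with NEBNext, and of the 53 highest, 13 were. RPS29 had 1029 ± 19.9 CPM with NEBNext and 522 ± 54.5 CPM undepleted in HEK293T (SD, n = 2 each), a log2 ratio of 0.98, and fell at 20-60 nt in the K562 NEBNext pair. RPL32 had 489 ± 93.6 and 1052 ± 14.6 CPM (SD, n = 2 each), a log2 ratio of -1.11, and rose. RPS24, at -0.87, also rose. EIF4A1, at 0.02, does not follow this order. Called genes also went against it: RPL35A, at 0.55, rose, and CFL1, at -0.56, fell. These examples were chosen after their values were seen.

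Within K562 the NEBNext change followed the HEK293T order more steeply at 20-34 nt, a difference that was not tested. The slope of the log2 ratio of NEBNext over undepleted on the HEK293T change was 0.63 at 20-34 nt and 0.23 at 20-60 nt. Taken against the undepleted libraries of the other K562 table, which are deeper and serve both sizes, it was 0.60 and 0.27. That shared reference cancels between the sizes. The gap between these slopes therefore restates the relation of the NEBNext size change to the HEK293T change, and is no separate support for it. Of the 57 called genes with at least 20 counts in HEK293T, 40 had a size change opposite in sign to the HEK293T change, or 70.2%, against 56.7% of 1452 genes tested. Most called genes had high counts, so the 56.7% is not a matched share. In the 4 groups of 53 genes above, from lowest to highest, 67.9%, 56.6%, 34.0% and 24.5% were higher at 20-60 nt with NEBNext. The 70.2% is therefore not read as particular to the called genes. Size range, depth and library differ together between the 20-34 and 20-60 nt libraries, and with 1 library each they cannot be told apart.

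**Figure D5:**
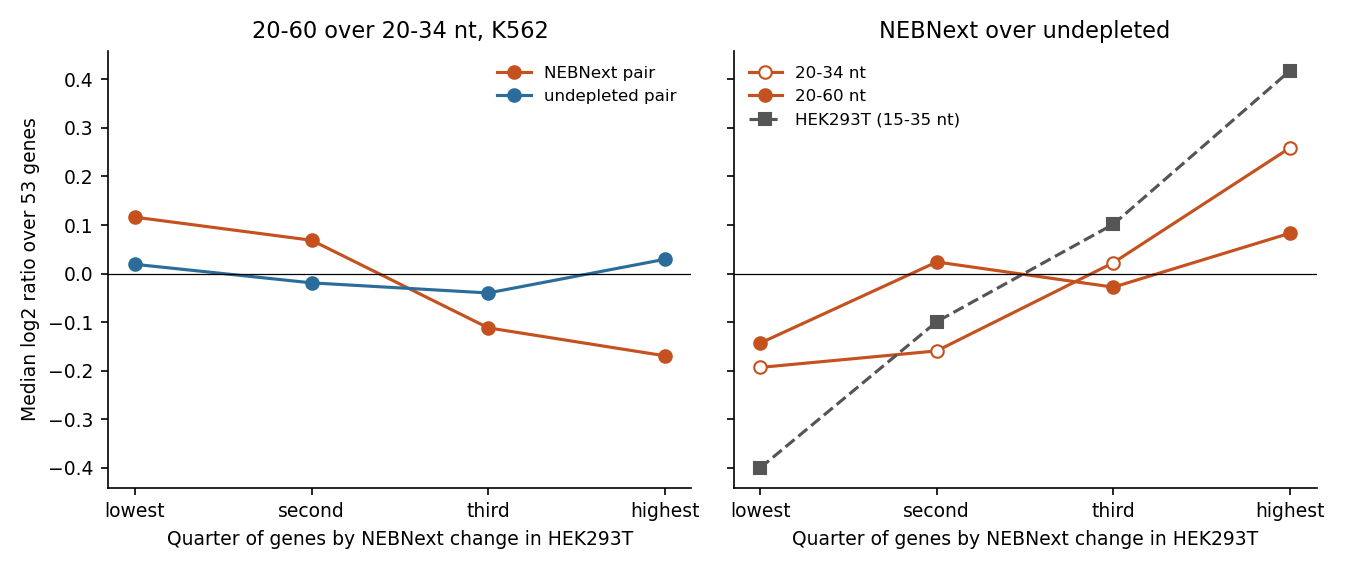
Median log2 ratio (vertical axis) over 4 groups of 53 genes ordered by the NEBNext change in HEK293T (horizontal axis). Left: 20-60 over 20-34 nt in K562, where the NEBNext pair runs from 0.12 to -0.17. Right: NEBNext over undepleted at each range in K562, and in HEK293T, whose own change sets the order.

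Features of the coding sequence were compared with the size change. Genes with a coding sequence under 300 nt held 2.47% of counts at 20-34 nt and 2.29% at 20-60 nt with NEBNext (log2 ratio -0.11, 95% interval -0.16 to -0.06), and 2.13% and 2.14% undepleted (0.01, -0.09 to 0.11). The median of the same 82 genes was 0.09 with NEBNext, opposite in sign to their share, and -0.08 over the 28 of them that averaged 50 counts or more. Genes of the lowest quintile of coding GC content had a median of -0.06 with NEBNext and those of the highest quintile 0.09. Across 3599 genes the correlation of GC content with the size change was a rho of 0.11 with NEBNext and -0.01 undepleted. Replicates of the other K562 table gave rho of 0.03 to 0.22, so a GC slope of the NEBNext size lies within what replicates show.

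Runs of 3 proline codons, at which ribosomes are known to slow, marked 792 genes. Their share of counts had a log2 ratio of 0.07 with NEBNext (95% interval 0.04 to 0.09) and of 0.02 undepleted (-0.02 to 0.06). The 2807 genes without such runs had a NEBNext ratio of -0.015 (-0.025 to -0.006). The highest quintile of GC content had a NEBNext ratio of 0.04 (0.02 to 0.06). The proline classes were not matched for GC content, and a link to slowed ribosomes was not tested. Genes with runs of 3 lysine codons held 17.3% of counts at both ranges with NEBNext, a log2 ratio of -0.01 (-0.03 to 0.01).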

How the data were processed

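Footprints of 4 K562 libraries were compared. The authors deposited whole-number counts per coding sequence (19478 rows, 1 transcript each). The deposited RPM values are these counts scaled, so they were not used. STAR and CASAVA 1.8 are named and GRCh38 is the build, per the submitters' processing notes. The treatment of duplicates and of reads matching several genes is not given in the sources used here, so intervals cover counting error only.

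The main test was edgeR's quasi-likelihood test (version 4.0.16, R 4.3.3) after TMM scaling and filterByExpr (minimum count 10), with Benjamini-Hochberg adjustment at 0.05, over 3715 genes. The additive fit used depletion and size (1 residual degree of freedom). A joint fit added 8 libraries in 4 replicate pairs from another K562 table (4 residual degrees of freedom). Whether these pairs are separate cultures is not labelled, so their spread may be technical. List shares carry 95% Clopper-Pearson intervals, and ratios exact conditional intervals, computed with scipy 1.17.1. Log2 ratios of CPM quoted for single genes used no prior count. A prior count of 0.5 was used in comparisons across genes and in the medians of coding-sequence classes. DESeq2 1.42.0 was an alternative.

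GENCODE 29 gave a coding sequence for 97.3% of rows, and 741 of 744 list symbols matched. The genes named are those called, the 8 largest shared rises and falls with a mean of at least 100 counts, those whose size effect differed between depletions, 2 members of most counts per list, the 13 mitochondrial mRNAs, KCNH8 and CCNC. Other named genes were chosen after their values were seen. The gene lists, the libraries and these rules were chosen with earlier results of these data known.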

Additional observations from a re-analysis of the deposited data

Results flagged for a closer look

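The size change of EIF4A1 differed between depletions by 0.99 on the log2 scale and that of RPL32 by 0.85, higher with NEBNext in each (edgeR's quasi-likelihood test of the difference itself, adjusted p 0.0131 for each). Both were called as well under each of the 7 other settings run for this test: DESeq2 size factors, total-count scaling, a mean of at least 50 counts, and each replicate pair left out of the spread. With 1 library per depletion and size, the part of the single libraries in these differences was not tested.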

How the results depend on the processing

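The 6 calls of the additive fit became 1 with total-count scaling, 3 without a filter, 0 with DESeq2, 0 with size alone in the fit and 49 in the joint fit (19 higher, 30 lower). DESeq2 size factors gave 7 and a mean of at least 50 counts gave 8. An alternative added after the data were seen, a filter passed by 1 library, gave 4. Of the 6 genes, 6 remained with DESeq2 size factors and in the joint fit, 5 of 5 tested with the mean of 50, 4 with the added filter and 3 without a filter. The 79 calls within NEBNext became 73 to 95 when each replicate pair was left out of the spread, also chosen after seeing the data, and 77 to 85 under the other scalings and filter. The undepleted pair stayed at 0 calls under each. With the 14 genes among the 10 of most counts in any library left out of the total alone, 12 lists of the NEBNext pair and 1 of the undepleted pair had intervals that excluded no change. With these genes, MT-CO1, MT-CO2 and MT-CO3 among them, left out of the lists too, added after the data were seen, the counts were 9 and 0. The histone ratio over both pairs turned to 0.00331 in the undepleted pair alone, and the glycolytic ratio to 0.00945 without these genes in list and total. A prior count of 2 raised the undepleted median of all genes to 0.27, by construction of the prior in a shallow library. No paired analysis was possible because the titles carry no replicate numbers, other than the pairing by depletion that the additive fit already holds. The undepleted 20-60 nt library, with 46858 counts, limits the depth.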
